A study of Mus musculus with 35 samples.

Results

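Nodal and TGF-beta signaling was followed through 9 genes, chosen by gene symbol as rows of the deposited RNA-seq tables: *Nodal*, *Inhba*, *Tgfb1*, *Tgfb2*, *Tgfb3*, *Lefty1*, *Lefty2*, *Cer1* and *Smad7*. The table of the *Dnmt1* experiment listed 9 of the 9 among 18091 genes. The day 3 table and the table of the *Tet3* catalytic domain (Tet3-CD) experiment listed 8 each, among 17948 and 17705 genes, and *Cer1* was the gene not listed in them. Each listed member passed the filter of a mean of at least 10 normalized counts.

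NODAL, activins and TGF-beta proteins are secreted ligands that bind paired serine/threonine kinase receptors, which phosphorylate SMAD2 and SMAD3, and these enter the nucleus with SMAD4 and DNA-binding partners such as FOXH1. NODAL signaling induces its own inhibitors, the LEFTY proteins, and in the early mouse embryo it maintains the pluripotent epiblast, patterns the axis and specifies mesoderm and endoderm. Neural differentiation of epiblast and of embryonic stem cells (ESCs) proceeds where this signal is low.

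The study asked what the catalytic activity and the presence of TET3, an enzyme that oxidizes 5-methylcytosine, contribute when ESCs become neuroectoderm (NE). All 26 RNA-seq samples were NE cells from male V6.5 ESCs of mixed 129/C57BL/6 background, differentiated by LIF withdrawal and 1 µM retinoic acid (RA), for 72 h by the labels. The genotypes were wild type (*Tet3*+/+), catalytic mutant (*Tet3* m/m, point mutations at the iron-binding residues) and knockout (*Tet3*-/-, an exon deleted). At day 3 there were 3 *Tet3*+/+, 3 *Tet3* m/m and 2 *Tet3*-/- samples, each from a separate ESC clone.

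In the *Dnmt1* experiment, ESCs of each genotype received Myc-tagged *Dnmt1* or the empty vector (EV) at day 0, with blasticidin started after 48 h and kept for 24 h, and each of the 6 groups had 2 samples. In the Tet3-CD experiment, cells received the HA-tagged wild-type catalytic domain of TET3 or EV on day 2, and each of the 6 groups had 1 sample. The study's methods place RNA collection 48 h after that transfection while the labels give day 3. Reads per sample, recovered from the deposited normalized counts, ran from 36594650 to 47710548 at day 3, from 31155842 to 50845950 for the *Dnmt1* samples and from 33475041 to 37707719 for the Tet3-CD set. The paper speaks in general of biological replicates, but for the 2 samples of a group in the *Dnmt1* experiment the labels do not say that they were separate cultures, so its p-values measure the spread between these samples, which may be technical.

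*Tet3* itself was measured first as a check of the labels. At day 3 it stood at 4613, 4576 and 5020 normalized counts in *Tet3*+/+ samples, at 2666, 2277 and 1945 in *Tet3* m/m samples and at 1796 and 2329 in *Tet3*-/- samples. Every mutant sample lay below every *Tet3*+/+ sample. The log2 fold change against *Tet3*+/+ was −1.05 (SE 0.13, adjusted p = 0.00071) for *Tet3* m/m, lower in 3 of 3, and −1.21 (SE 0.15, adjusted p = 0.0274) in *Tet3*-/-, lower in 2 of 2. The *Tet3*-/- call passed the threshold in only 2 of the 8 fits that left out 1 sample, those without *Tet3* m/m replicate 1 or 3. It was lost without *Tet3*+/+ replicate 1 (adjusted p = 0.0704), 2 (0.126) or 3 (0.0888), *Tet3* m/m replicate 2 (0.0711) and *Tet3*-/- replicate 1 (0.0759) or 2 (0.0765), and all alternatives together ran from 2.54e-09 to 0.126.

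With EV in the *Dnmt1* experiment, *Tet3* stood at 2957 and 3075 in *Tet3*+/+ samples, 1125 and 964 in *Tet3* m/m samples and 2520 and 2571 in *Tet3*-/- samples. Both *Tet3* m/m samples were far below the others, while both *Tet3*-/- samples were only slightly below *Tet3*+/+. The change in log2 was −1.53 (SE 0.08, adjusted p = 5.58e-13) for *Tet3* m/m and −0.24 (SE 0.08, adjusted p = 0.0114) in *Tet3*-/-, which is under the 1.5-fold required here. EV samples of the Tet3-CD experiment held 4755 (*Tet3*+/+), 1850 (*Tet3* m/m) and 2070 (*Tet3*-/-) normalized counts of *Tet3*. The Tet3-CD samples held 5441, 5232 and 2759, so the log2 ratio to EV was 1.5 in *Tet3* m/m, 0.41 in *Tet3*-/- and 0.19 in *Tet3*+/+. Gene-level counts show neither mutation directly, so the RNA level alone does not check the genotype.

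*Dnmt1*, the maintenance DNA methyltransferase and the gene carried by the vector, stood with EV at 14679 and 15225 in *Tet3*+/+ samples, 11934 and 11285 in *Tet3* m/m samples and 17356 and 17554 in *Tet3*-/- samples. With the *Dnmt1* vector it stood at 22799 and 23768, 20245 and 23211, and 33380 and 39854. All 6 vector samples exceeded the EV samples of their genotype. Its log2 fold change was 0.64 (adjusted p = 5.66e-06) in *Tet3*+/+, 0.90 (adjusted p = 7.46e-09) in *Tet3* m/m and 1.06 (adjusted p = 1.36e-09) in *Tet3*-/-. Without the vector, *Dnmt1* differed from *Tet3*+/+ by less than 1.5-fold in each mutant and experiment, with log2 values of −0.25 (adjusted p = 0.0852) for *Tet3* m/m and −0.17 (adjusted p = 0.359) for *Tet3*-/- at day 3. They were −0.37 (adjusted p = 8.23e-05) and 0.22 (adjusted p = 0.00647) with EV in the *Dnmt1* experiment. The EV samples of the Tet3-CD set gave log2 ratios of −0.29 and 0.48, so the sign for *Tet3*-/- differed between experiments.

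A gene was called when it differed by more than 1.5-fold and limma, fitted over all genes of an experiment, put its adjusted p under 0.05. Of the 8 members at day 3, 3 were called higher (*Nodal*, *Lefty2* and *Tgfb1*) and 1 lower (*Tgfb3*) in *Tet3* m/m than in *Tet3*+/+. Over all 17915 genes tested, 10.2% were called, 5.06% higher and 5.19% lower. The median log2 fold change of the 8 was 0.46, beside 0.001 over all genes. In *Tet3*-/- none of the 8 was called by limma, by edgeR or by DESeq2, against 0.642% of all genes (0.458% higher, 0.184% lower). There 3 members had an unadjusted p under 0.05, *Tgfb1*, *Tgfb2* and *Inhba*, and the median was 0.37 beside −0.014. The number called was 1 without *Tet3* m/m replicate 1 and 2 without *Tet3* m/m replicate 3. Over all genes limma called 115, edgeR 86 and DESeq2 917 in that comparison. With 1 sample left out limma called 0 without *Tet3*+/+ replicate 1, *Tet3*+/+ replicate 3, *Tet3* m/m replicate 2, *Tet3*-/- replicate 1 or *Tet3*-/- replicate 2, then 2 without *Tet3*+/+ replicate 2, 706 without *Tet3* m/m replicate 1 and 568 without *Tet3* m/m replicate 3.

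Compared directly at day 3, 2 members were lower (*Nodal* and *Lefty2*) and 3 higher (*Tgfb2*, *Tgfb3* and *Inhba*) in *Tet3*-/- than in *Tet3* m/m, beside 9.73% of all genes called, 5.41% higher and 4.33% lower. Over all genes limma called 1744, and 1152 without *Tet3* m/m replicate 2. The member count of 5 became 1 without *Tet3* m/m replicate 2, 3 without *Tet3*-/- replicate 1 and 1 without *Tet3*-/- replicate 2. The 3 genotype comparisons of an experiment share samples, so their values stand side by side and are not independent of each other.

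With EV in the *Dnmt1* experiment, 4 of 9 members were called higher (*Nodal*, *Lefty1*, *Lefty2* and *Cer1*) and 2 lower (*Tgfb2* and *Tgfb3*) in *Tet3* m/m than in *Tet3*+/+. The share over all 18055 genes tested was 21.2%, with 10.3% higher and 10.9% lower. In *Tet3*-/-, 3 were called higher (*Inhba*, *Tgfb1* and *Tgfb2*) and 3 lower (*Nodal*, *Lefty1* and *Lefty2*), beside 24.9% of all genes, 11.0% higher and 13.9% lower. Between the mutants, 3 members were higher and 4 lower in *Tet3*-/- than in *Tet3* m/m, beside 39.6% of all genes, 18.9% higher and 20.6% lower. The medians over the 9 members were 0.46, −0.14 and −0.39, beside 0.007, 0.003 and −0.014 over all genes. With *Cer1* at its counting ratio, left out or at its bound, they became 0.46, −0.04 and −0.39. *Cer1* passed the filter through the *Tet3* m/m samples alone, so its count among the members carries no weight of its own.

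In the Tet3-CD experiment, with 1 sample a group, no test was made, and a gene was counted when its ratio of normalized counts passed 1.5-fold. With EV, 7 of 8 members were past it higher and 1 (*Tgfb3*) lower in *Tet3* m/m than in *Tet3*+/+, beside 36.3% of 17481 genes, 20.2% higher and 16.1% lower. In *Tet3*-/- 2 were higher (*Nodal* and *Lefty2*) and 1 lower (*Inhba*), beside 27.1% of genes, 15.4% higher and 11.7% lower. The medians were 1.53 and 0.05, beside 0.006 and −0.003 over all genes. Intervals given for these ratios, and floors, cover counting error only.

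*Nodal*, the ligand that maintains the epiblast and induces mesendoderm, was at 566, 530 and 460 normalized counts in day 3 *Tet3*+/+, 1145, 1085 and 1643 in *Tet3* m/m samples and 617 and 499 in *Tet3*-/- samples. All 3 *Tet3* m/m samples lay above every *Tet3*+/+ and *Tet3*-/- sample, and the *Tet3*+/+ and *Tet3*-/- samples overlapped. The log2 fold change was 1.30 (SE 0.17, adjusted p = 0.00100) for *Tet3* m/m, higher in 3 of 3, and 0.10 (adjusted p = 0.808) for *Tet3*-/-. Compared with *Tet3* m/m, *Tet3*-/- was lower by a log2 value of −1.19 (SE 0.19, adjusted p = 0.00385), and this call held in each fit that left out 1 sample. Fewer cells of a type and less RNA per cell cannot be told apart in bulk samples.

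*Nodal* with EV in the *Dnmt1* experiment stood at 964 and 996 in *Tet3*+/+ samples, 2320 and 2185 in *Tet3* m/m samples and 534 and 497 in *Tet3*-/- samples. The genotypes were fully separated, with *Tet3* m/m above and *Tet3*-/- below *Tet3*+/+. Its log2 fold change was 1.2 (SE 0.08, adjusted p = 1.02e-10) for *Tet3* m/m and −0.93 (SE 0.08, adjusted p = 6.85e-09) in *Tet3*-/-, each with 2 of 2 samples in that direction. EV samples of the Tet3-CD experiment held 219 (*Tet3*+/+), 1766 (*Tet3* m/m) and 377 (*Tet3*-/-). The single *Tet3* m/m sample was the highest of the 3, with a log2 ratio to *Tet3*+/+ of 3.01 (95% counting interval 2.80 to 3.23), and *Tet3*-/- also lay above *Tet3*+/+, at 0.78 (0.53 to 1.04). The *Nodal* direction in *Tet3*-/- was thus lower in 1 experiment, higher in another and within the spread at day 3, and the difference between experiments was not tested.

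*Inhba* encodes the activin A subunit, a ligand that acts through the same receptors as NODAL. At day 3 it was at 183, 110 and 148 in *Tet3*+/+ samples, 164, 74.2 and 26.5 in *Tet3* m/m samples and 348 and 453 in *Tet3*-/- samples. Both *Tet3*-/- samples were above all others, and the *Tet3* m/m samples spread over a wide range that overlapped *Tet3*+/+. The *Tet3*-/- value against *Tet3*+/+ was 1.46 (SE 0.58, 95% interval 0.18 to 2.73, adjusted p = 0.195), higher in 2 of 2 and short of the threshold. A fit to those 2 groups alone (adjusted p = 0.0216) or without *Tet3* m/m replicate 3 (0.0456) passed it, and the alternatives ran from 0.0216 to 0.454. Against *Tet3* m/m the *Tet3*-/- value was 2.51 (SE 0.58, adjusted p = 0.0193). That call was lost in a fit to those 2 groups (0.0519) and without *Tet3* m/m replicate 2 (0.0508), *Tet3*-/- replicate 1 (0.0659) or *Tet3*-/- replicate 2 (0.0959), over a range from 0.000325 to 0.0959. In *Tet3* m/m the value was −1.06 (SE 0.52, adjusted p = 0.21), and it was called without *Tet3* m/m replicate 1 (log2 −1.68, adjusted p = 0.0284), with a range from 0.0284 to 0.521.

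*Inhba* with EV in the *Dnmt1* experiment was low in *Tet3*+/+ (31.6 and 23.2) and in *Tet3* m/m (23.8 and 26), and stood at 186 and 165 in *Tet3*-/-. Only the *Tet3*-/- samples stood apart, with a log2 fold change of 2.65 (SE 0.35, adjusted p = 2.02e-06), higher in 2 of 2, while the *Tet3* m/m value was −0.12 (SE 0.35, adjusted p = 0.822). In the Tet3-CD experiment the order was another one: the EV samples held 110 (*Tet3*+/+), 413 (*Tet3* m/m) and 52.1 (*Tet3*-/-). The log2 ratio was 1.90 (1.60 to 2.23) for *Tet3* m/m and −1.06 (−1.59 to −0.58) for *Tet3*-/-.

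*Tgfb1*, a ligand known for extracellular matrix production and immune control, was at 524, 444 and 519 in day 3 *Tet3*+/+, 867, 911 and 741 in *Tet3* m/m samples and 547 and 863 in *Tet3*-/- samples. Every mutant sample was above every *Tet3*+/+ sample, though *Tet3*-/- replicate 1 by little. The log2 fold change was 0.76 (SE 0.17, adjusted p = 0.0166) for *Tet3* m/m and 0.47 (SE 0.20, adjusted p = 0.209) in *Tet3*-/-. The *Tet3* m/m call was lost without *Tet3*+/+ replicate 2 (0.68, adjusted p = 0.0668) or *Tet3* m/m replicate 2 (0.70, adjusted p = 0.0681), and the alternatives ran from 0.000713 to 0.0681. The difference between *Tet3*-/- and *Tet3* m/m, −0.28, did not pass either (adjusted p = 0.381).

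*Tgfb1* with EV in the *Dnmt1* experiment stood at 369 and 329 in *Tet3*+/+ samples, 402 and 470 in *Tet3* m/m samples and 568 and 571 in *Tet3*-/- samples. The *Tet3*-/- samples were the highest, at a log2 fold change of 0.71 (SE 0.11, adjusted p = 1.46e-05), and *Tet3* m/m lay between at 0.32 (SE 0.11, adjusted p = 0.0227), under 1.5-fold. The Tet3-CD experiment had 343 (*Tet3*+/+), 725 (*Tet3* m/m) and 429 (*Tet3*-/-) with EV. There *Tet3* m/m was above *Tet3*+/+ by a log2 ratio of 1.08 (0.89 to 1.27) and *Tet3*-/- by 0.32.

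*Tgfb2*, a ligand used in heart, eye and neural crest development, was at 2629, 1348 and 2336 in day 3 *Tet3*+/+, 3022, 1743 and 1392 in *Tet3* m/m samples and 5213 and 4769 in *Tet3*-/- samples. Both *Tet3*-/- samples were above all 6 others, whose ranges overlapped. The log2 fold change of *Tet3*-/- was 1.30 against *Tet3*+/+ (SE 0.32, 95% interval 0.60 to 2.01, adjusted p = 0.0692) and 1.36 against *Tet3* m/m (SE 0.32, adjusted p = 0.0208), while *Tet3* m/m against *Tet3*+/+ was −0.06 (adjusted p = 0.922). The first of these was called in a fit to the 2 groups alone (0.0231) and without *Tet3* m/m replicate 1 (0.0198) or 3 (0.0306), with alternatives from 0.0198 to 0.24. The second was lost without *Tet3* m/m replicate 2 (0.0678), *Tet3*-/- replicate 1 (0.103) or *Tet3*-/- replicate 2 (0.0712), over a range from 0.00363 to 0.103.

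*Tgfb2* with EV in the *Dnmt1* experiment stood at 1075 and 1032 in *Tet3*+/+ samples, 410 and 397 in *Tet3* m/m samples and 3072 and 3189 in *Tet3*-/- samples. The 3 genotypes were fully separated, in the reverse of the order seen for *Nodal*. Its log2 fold change was −1.38 (SE 0.08, adjusted p = 6.98e-12) for *Tet3* m/m and 1.57 (SE 0.08, adjusted p = 1.19e-12) in *Tet3*-/-. EV samples of the Tet3-CD experiment held 2077 (*Tet3*+/+), 4621 (*Tet3* m/m) and 1385 (*Tet3*-/-). Here *Tet3* m/m was the highest and *Tet3*-/- the lowest, with log2 ratios of 1.15 (1.08 to 1.23) and −0.58 (−0.68 to −0.48), the latter just under 1.5-fold.

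*Tgfb3*, a ligand known for palate fusion, was at 784, 734 and 617 in day 3 *Tet3*+/+, 319, 424 and 424 in *Tet3* m/m samples and 587 and 636 in *Tet3*-/- samples. All 3 *Tet3* m/m samples were below all others. The log2 fold change was −0.88 (SE 0.16, adjusted p = 0.00506) in *Tet3* m/m, lower in 3 of 3, and −0.21 (adjusted p = 0.533) in *Tet3*-/-, and *Tet3*-/- exceeded *Tet3* m/m by 0.66 (SE 0.18, adjusted p = 0.0342). The last call was lost in a fit to those 2 groups (0.0857), with a term for the replicate number (0.0672) and without *Tet3*+/+ replicate 1 (0.0536) or 2 (0.0547), *Tet3* m/m replicate 1 (0.53, under 1.5-fold) or 2 (0.0585), or *Tet3*-/- replicate 1 (0.0888) or 2 (0.13), over a range from 0.00626 to 0.13.

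*Tgfb3* with EV in the *Dnmt1* experiment stood at 757 and 828 in *Tet3*+/+ samples, 159 and 142 in *Tet3* m/m samples and 693 and 745 in *Tet3*-/- samples. The *Tet3* m/m samples were again the low ones, at a log2 fold change of −2.39 (SE 0.11, adjusted p = 1.48e-13), beside −0.14 (adjusted p = 0.312) for *Tet3*-/-. The Tet3-CD experiment gave the lowest EV value in *Tet3* m/m as well, with 659 (*Tet3*+/+), 319 (*Tet3* m/m) and 734 (*Tet3*-/-) and a log2 ratio of −1.04 (−1.24 to −0.85) for *Tet3* m/m. *Tgfb3* was the member that stood lower in *Tet3* m/m than in *Tet3*+/+ in each of the 3 experiments.

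*Lefty1* and *Lefty2* encode secreted inhibitors that block NODAL and its co-receptor, and both are direct targets of the pathway. Their annotated exons share 306 stretches of 50 bases, 17.9% of those of *Lefty1* and 12% of those of *Lefty2*. A read that lies wholly within such a stretch could come from either gene, and how this affected their counts was not tested. At day 3 *Lefty1* was at 275, 171 and 161 in *Tet3*+/+ samples, 350, 766 and 1603 in *Tet3* m/m samples and 549 and 112 in *Tet3*-/- samples. Every *Tet3* m/m sample was above every *Tet3*+/+ sample, with a wide spread, and the *Tet3*-/- samples lay on both sides of *Tet3*+/+. Its log2 fold change was 1.94 (SE 0.60, adjusted p = 0.0551) for *Tet3* m/m, higher in 3 of 3, and 0.34 (SE 0.67, adjusted p = 0.82) in *Tet3*-/-. The *Tet3* m/m value was called by edgeR (log2 2.16, adjusted p = 0.0341) and DESeq2 (0.0308), in a fit to the 2 groups (0.0205), with a term for the replicate number (0.0407) and without *Tet3* m/m replicate 1 (2.49, 0.0229), *Tet3*-/- replicate 1 (0.0216) or *Tet3*-/- replicate 2 (0.021). Its alternatives ran from 0.0205 to 0.161. The *Tet3*-/- value was −0.81 without *Tet3*-/- replicate 1 and 1.48 without *Tet3*-/- replicate 2, and *Tet3*-/- against *Tet3* m/m (−1.60, adjusted p = 0.145) was called without *Tet3* m/m replicate 1 (−2.16, adjusted p = 0.0436) or *Tet3*-/- replicate 1 (−2.75, adjusted p = 0.0369), with alternatives from 0.0369 to 0.709.

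*Lefty1* with EV in the *Dnmt1* experiment stood at 940 and 916 in *Tet3*+/+ samples, 4354 and 4274 in *Tet3* m/m samples and 116 and 113 in *Tet3*-/- samples. The genotypes were widely separated, in the order of *Nodal*. The log2 fold change was 2.22 (SE 0.14, adjusted p = 2.94e-11) for *Tet3* m/m and −3.01 (SE 0.14, adjusted p = 2.88e-13) in *Tet3*-/-. EV samples of the Tet3-CD experiment held 170 (*Tet3*+/+), 1207 (*Tet3* m/m) and 164 (*Tet3*-/-). Only *Tet3* m/m stood apart there, with a log2 ratio of 2.82 (2.59 to 3.08), and *Tet3*-/- was at −0.05.

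*Lefty2* was at 183, 212 and 166 in day 3 *Tet3*+/+, 484, 698 and 1061 in *Tet3* m/m samples and 393 and 153 in *Tet3*-/- samples. All *Tet3* m/m samples were above all *Tet3*+/+ and *Tet3*-/- samples. Its log2 fold change was 1.93 (SE 0.35, adjusted p = 0.00516) in *Tet3* m/m, higher in 3 of 3, and 0.40 (adjusted p = 0.607) in *Tet3*-/-. The *Tet3*-/- value turned to −0.29 without *Tet3*-/- replicate 1 and was 1.08 without *Tet3*-/- replicate 2. Against *Tet3* m/m, *Tet3*-/- was lower by −1.53 (SE 0.39, adjusted p = 0.0289), a call lost in a fit to those 2 groups (0.0701), with a term for the replicate number (0.0508) and without *Tet3* m/m replicate 2 (0.0757), *Tet3* m/m replicate 3 (0.0721) or *Tet3*-/- replicate 2 (−0.85, adjusted p = 0.18), and kept without *Tet3*-/- replicate 1 (−2.21, adjusted p = 0.00927). Its alternatives ran from 0.00133 to 0.18.

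*Lefty2* with EV in the *Dnmt1* experiment stood at 1020 and 1059 in *Tet3*+/+ samples, 2952 and 2825 in *Tet3* m/m samples and 84.4 and 93.1 in *Tet3*-/- samples. It separated the genotypes in the same order as *Lefty1*. Its log2 fold change was 1.47 (SE 0.10, adjusted p = 4.08e-11) for *Tet3* m/m and −3.54 (SE 0.10, adjusted p = 4.71e-17) in *Tet3*-/-. The Tet3-CD experiment had 107 (*Tet3*+/+), 527 (*Tet3* m/m) and 162 (*Tet3*-/-) with EV. Both mutants were above *Tet3*+/+ there, with log2 ratios of 2.29 (1.99 to 2.62) for *Tet3* m/m and 0.60 (0.24 to 0.98) for *Tet3*-/-.

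*Cer1*, a secreted inhibitor of NODAL and BMP made by visceral and definitive endoderm, was near 0 outside *Tet3* m/m. With EV in the *Dnmt1* experiment it was at 1.98 and 0 normalized counts in *Tet3*+/+ samples, 53.0 and 53.4 in *Tet3* m/m samples and 0 and 0 in *Tet3*-/- samples. The reads numbered 2 over the *Tet3*+/+ samples, 99 over the *Tet3* m/m samples and 0 over the *Tet3*-/- samples. The *Tet3* m/m level was 49.8 times that of *Tet3*+/+ (95% counting interval 13.4 to 417), higher in 2 of 2. Since it passed the filter only through those samples, its test carries no weight. Against *Tet3* m/m, the *Tet3*-/- level was at least 38.6-fold lower, taken against a floor of 3 counts over the group. Between *Tet3*-/- and *Tet3*+/+ no fold can be given, since both were at or under that floor.

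*Smad7*, an intracellular inhibitor that TGF-beta signaling induces and that blocks its receptors, was at 3965, 3591 and 4123 in day 3 *Tet3*+/+, 3552, 4624 and 5105 in *Tet3* m/m samples and 3591 and 4734 in *Tet3*-/- samples. The 3 groups overlapped, with log2 values of 0.17 (adjusted p = 0.48) in *Tet3* m/m and 0.09 (adjusted p = 0.81) in *Tet3*-/-. EV samples of the *Dnmt1* experiment held 4540 and 4627 (*Tet3*+/+), 6291 and 6281 (*Tet3* m/m) and 4830 and 4731 (*Tet3*-/-). The *Tet3* m/m samples were the highest, by a log2 value of 0.46 (SE 0.05, adjusted p = 4.11e-08) that stayed under 1.5-fold, and *Tet3*-/- differed by 0.06 (adjusted p = 0.284). EV samples of the Tet3-CD experiment held 2665 (*Tet3*+/+), 4653 (*Tet3* m/m) and 2568 (*Tet3*-/-), and the log2 ratio was 0.80 (0.73 to 0.87) for *Tet3* m/m and −0.05 for *Tet3*-/-.

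**Figure D1:**
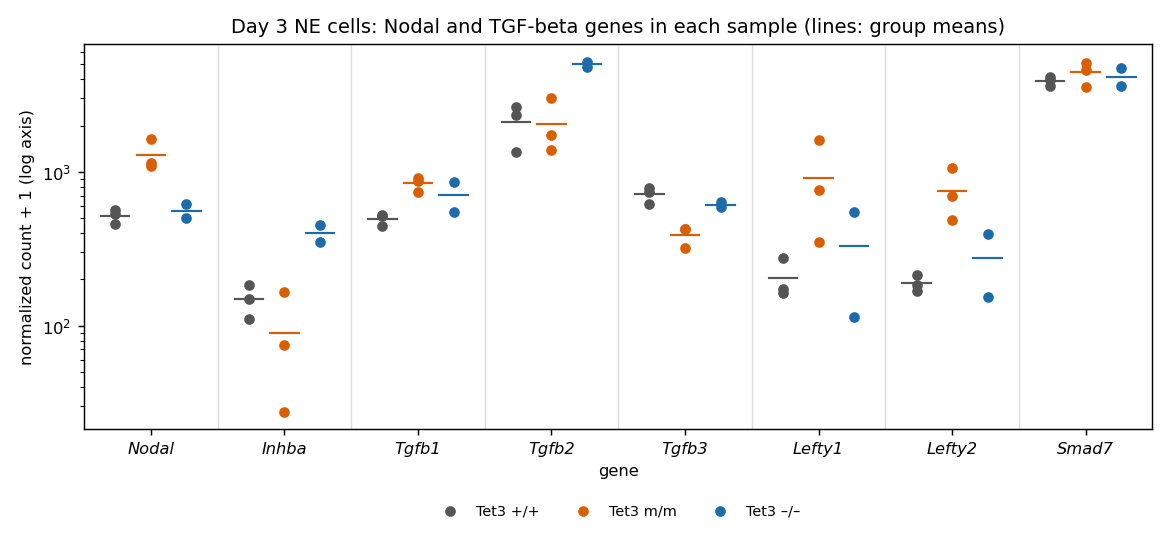
Normalized counts plus 1 (log scale) of the 8 listed members in each day 3 NE sample, with 1 point per sample, coloured by genotype, and a line at the group mean. *Nodal* lay between 1085 and 1643 in the 3 *Tet3* m/m samples and between 460 and 617 in the 5 others.

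**Figure D2:**
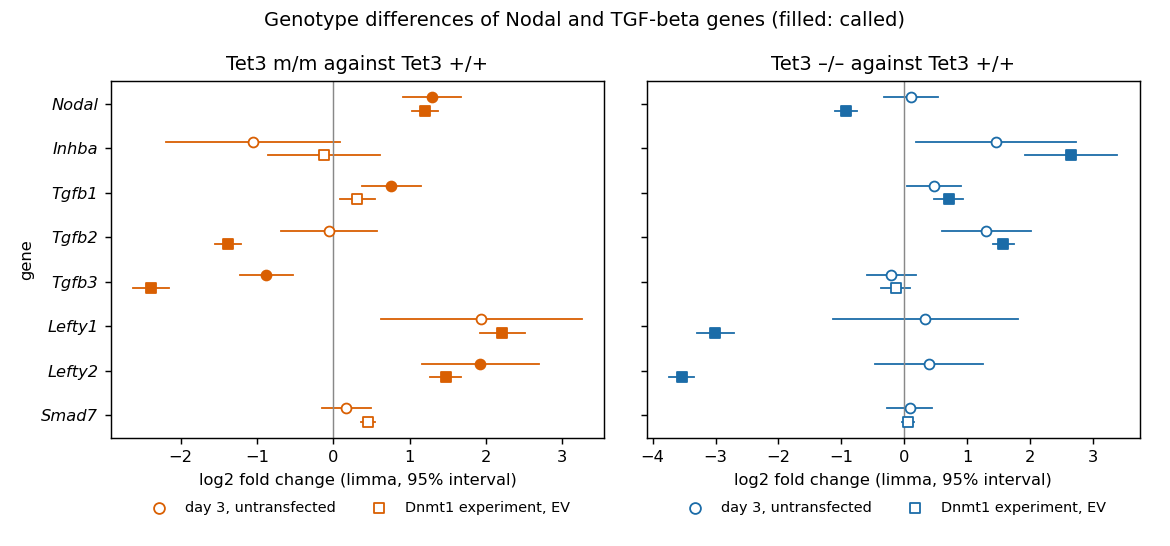
Log2 fold changes of 8 members (*Cer1* left out) in *Tet3* m/m and *Tet3*-/- against *Tet3*+/+, at day 3 (circles) and with EV in the *Dnmt1* experiment (squares), with 95% intervals from limma. Filled points passed the adjusted p and the 1.5-fold threshold, such as *Lefty2* at −3.54 in *Tet3*-/- with EV.

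The *Dnmt1* vector was compared with EV within each genotype, which asks whether added *Dnmt1* moves the members. In *Tet3*+/+, limma, edgeR and DESeq2 called 0 of the 9 members, and 2 had an unadjusted p under 0.05 (*Nodal* and *Tgfb2*), beside 1.17% of all genes called, 0.421% higher and 0.753% lower. In *Tet3* m/m 2 were called higher (*Tgfb2* and *Tgfb3*), beside 2.46% of genes, 1.78% higher and 0.681% lower. In *Tet3*-/- 3 were called higher (*Nodal*, *Lefty1* and *Lefty2*), beside 3.53% of genes, 2.51% higher and 1.02% lower. The medians over members were 0.07, 0.29 and 0.61, beside 0.002, −0.002 and 0.010 over all genes, and the last was 0.54 with *Cer1* left out. Of all genes limma called 212 in *Tet3*+/+, which became 109 and 127 without the EV samples and 75 without *Dnmt1* replicate 1. In *Tet3*-/- it called 638, which became 413 without EV replicate 2, 1027 without *Dnmt1* replicate 1 and 356 without *Dnmt1* replicate 2.

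In *Tet3*-/- the 3 called members were higher with *Dnmt1*, and each comparison with EV uses the same EV samples as the genotype comparisons. *Nodal* went from 534 and 497 to 734 and 846, *Lefty1* from 116 and 113 to 178 and 301, and *Lefty2* from 84.4 and 93.1 to 156 and 159. In each case both *Dnmt1* samples were above both EV samples, and still below the *Tet3*+/+ samples with EV. On the log2 scale the changes were 0.61 (SE 0.08, adjusted p = 4.18e-05) for *Nodal*, 1.01 (SE 0.14, adjusted p = 6.28e-05) for *Lefty1* and 0.82 (SE 0.10, adjusted p = 7.82e-06) for *Lefty2*. *Nodal* fell under 1.5-fold without EV replicate 2 (0.56) or *Dnmt1* replicate 2 (0.51), and *Lefty1* was 0.63 without *Dnmt1* replicate 2. The difference from the *Dnmt1* effect in *Tet3*+/+ was tested and called for 3 members, *Lefty1* (0.96, SE 0.20, adjusted p = 0.00387), *Lefty2* (0.82, SE 0.14, adjusted p = 0.000509) and *Nodal* (0.38, SE 0.12, adjusted p = 0.0434), beside 9.71% of all genes.

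That difference for *Nodal* was the least stable: it kept its call in 2 of 12 fits with 1 sample left out, those without *Dnmt1* *Tet3*+/+ replicate 1 or *Dnmt1* *Tet3*-/- replicate 1. It was lost without either EV *Tet3*+/+ sample (adjusted p = 0.0874 and 0.133), EV *Tet3* m/m replicate 1 (0.0551) or 2 (0.0546), EV *Tet3*-/- replicate 1 (0.0508) or 2 (0.162), *Dnmt1* *Tet3*+/+ replicate 2 (0.186), *Dnmt1* *Tet3* m/m replicate 1 (0.0536) or 2 (0.0532), or *Dnmt1* *Tet3*-/- replicate 2 (0.179). A pseudocount of 0.1 (0.0527), a fit to the 4 groups alone (0.087) and a term for the replicate number (0.055) lost it too, and all alternatives ran from 0.00625 to 0.186. For *Lefty1* the difference was 0.58 without *Dnmt1* *Tet3*-/- replicate 2.

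In *Tet3* m/m, *Tgfb2* went from 410 and 397 with EV to 696 and 693 with *Dnmt1*, and *Tgfb3* from 159 and 142 to 235 and 268. Both genes were higher in 2 of 2 samples yet below their *Tet3*+/+ levels. On the log2 scale the changes were 0.78 (SE 0.08, adjusted p = 1.07e-06) for *Tgfb2* and 0.74 (SE 0.11, adjusted p = 0.000131) for *Tgfb3*. Against the effect in *Tet3*+/+, the difference was called for 1 member, *Tgfb3* (0.83, SE 0.16, adjusted p = 0.00685), beside 1.31% of all genes. It was lost without 1 of the 2 EV *Tet3*+/+ samples, which carry no replicate number in the table (0.76, adjusted p = 0.059), and its alternatives ran from 0.00089 to 0.059. For *Tgfb2* the difference was 0.44 (adjusted p = 0.0657) and was called without *Dnmt1* *Tet3*-/- replicate 1 (0.0164) or 2 (0.017), over a range from 0.0164 to 0.323. *Cer1* stood at 106 and 124 in *Tet3* m/m with *Dnmt1*, 2.17 times its EV level (1.71 to 2.76 from 262 against 99 reads), but was not called (adjusted p = 0.461, or 0.0182 in a fit to the 2 groups, with alternatives from 0.0182 to 0.781).

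The other values under the *Dnmt1* vector were smaller or did not pass. *Tgfb2* differed by 0.34 in *Tet3*+/+ (adjusted p = 0.0151) and 0.46 in *Tet3*-/- (adjusted p = 0.000578), both under 1.5-fold. The *Tgfb2* value in *Tet3*-/- was 0.59 and past the threshold without *Dnmt1* replicate 1. *Tgfb3* was at −0.54 in *Tet3*-/- (adjusted p = 0.00242), from 693 and 745 with EV to 495 and 495, under 1.5-fold in the whole fit and past it without EV replicate 1 (−0.59). *Lefty2* in *Tet3* m/m was at 0.41 (adjusted p = 0.00827) and *Smad7* in *Tet3* m/m at 0.28 (adjusted p = 0.000338), both under 1.5-fold. *Inhba* in *Tet3*-/- went from 186 and 165 to 270 and 374, a log2 value of 0.86 (SE 0.35, adjusted p = 0.12) that edgeR (0.0109), DESeq2 (0.0122) and a fit to the 2 groups (0.027) called, over a range from 0.0109 to 0.523. In the other genotypes *Inhba* pointed the other way, at −0.82 in *Tet3* m/m (adjusted p = 0.158, both samples lower) and −0.59 in *Tet3*+/+ (adjusted p = 0.378, overlapping), not called in any alternative, over ranges from 0.106 to 0.377 and from 0.189 to 0.947. *Inhba* in *Tet3*-/- also differed from its effect in *Tet3*+/+ by 1.45 (adjusted p = 0.0752), called by edgeR (0.0385), by DESeq2 (0.0307) and without *Dnmt1* *Tet3*+/+ replicate 1 (1.96, adjusted p = 0.0268), over a range from 0.0268 to 0.289.

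**Figure D3:**
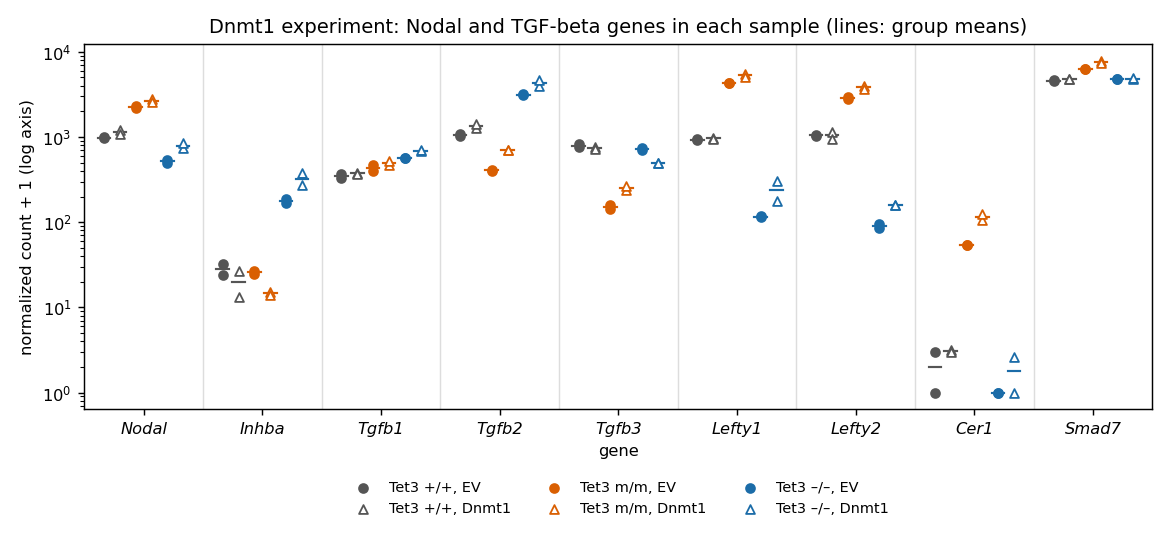
Normalized counts plus 1 (log scale) of the 9 members in the 12 samples of the *Dnmt1* experiment, with 1 point per sample, coloured by genotype (EV filled circles, *Dnmt1* open triangles), and lines at group means. *Lefty1* lay at 4274 and 4354 in *Tet3* m/m samples and at 113 and 116 in *Tet3*-/- samples with EV.

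Tet3-CD was compared with EV within each genotype, which asks whether the catalytic domain moves the members. In *Tet3*+/+ 2 members were past 1.5-fold, both lower (*Lefty1* and *Lefty2*), beside 13.4% of genes, 6.11% higher and 7.30% lower. In *Tet3* m/m 0 of 8 were past it, beside 10.1% of genes, 4.58% higher and 5.53% lower, and with 1 sample a group no test was made. In *Tet3*-/- 2 were higher (*Inhba* and *Tgfb2*) and 2 lower (*Lefty2* and *Tgfb3*), beside 21.5% of genes, 9.89% higher and 11.6% lower. The medians were 0.18, −0.04 and 0.39, beside 0.002, 0.002 and −0.018 over all genes.

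In *Tet3*+/+, *Lefty1* stood at 170 with EV and 85.0 with Tet3-CD, and *Lefty2* at 107 and 57.3. These log2 ratios were −0.99 (−1.40 to −0.61) and −0.89 (−1.39 to −0.42), and *Nodal*, at 219 and 158, was lower by less than 1.5-fold (−0.47, interval −0.78 to −0.17). In *Tet3* m/m, *Nodal* stood at 1766 and 1534 and *Lefty1* at 1207 and 1120. The 8 log2 ratios in *Tet3* m/m ran from −0.20 for *Nodal* to 0.07 for *Tgfb3*, so every member stayed close to its EV level while *Tet3* itself was higher by 1.5.

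In *Tet3*-/-, *Inhba* stood at 52.1 with EV and 293 with Tet3-CD, *Tgfb2* at 1385 and 3717, *Tgfb3* at 734 and 440, and *Lefty2* at 162 and 73.7. The log2 ratios were 2.47 (2.06 to 2.94), 1.42 (1.34 to 1.51), −0.74 (−0.91 to −0.57) and −1.13 (−1.55 to −0.74). *Nodal* (377 and 478, log2 ratio 0.34) and *Lefty1* (164 and 155, log2 ratio −0.08) stayed within 1.5-fold. Of the 3 pairs of EV and Tet3-CD samples, that of *Tet3*-/- was the least alike over all genes, and the part of this in the members' values was not tested.

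**Figure D4:**
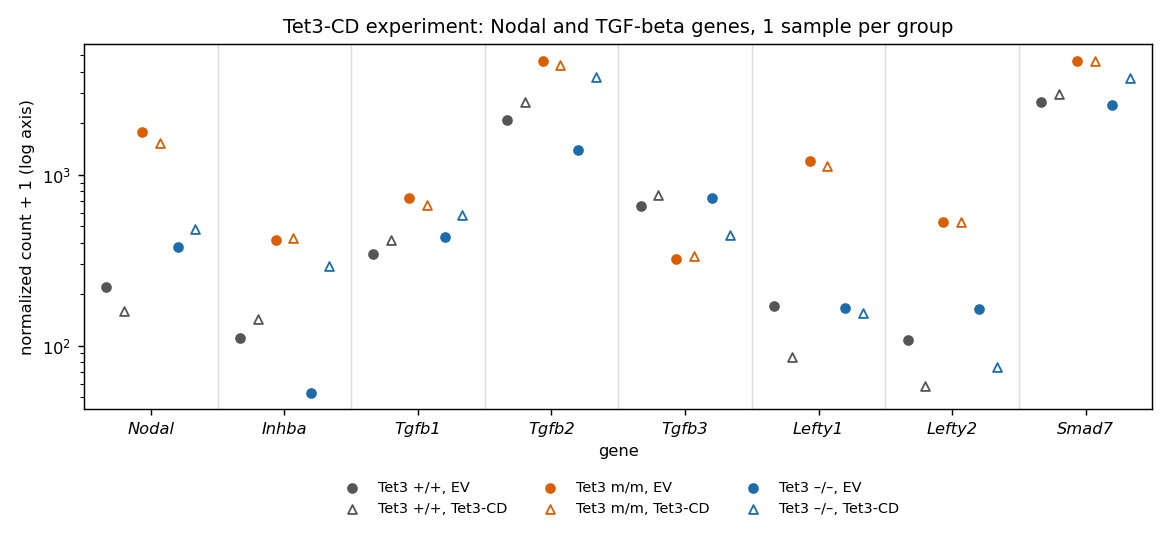
Normalized counts plus 1 (log scale) of the 8 listed members in the 6 samples of the Tet3-CD experiment, with 1 point per sample, coloured by genotype (EV filled circles, Tet3-CD open triangles). *Inhba* lay at 52.1 with EV and 293 with Tet3-CD in *Tet3*-/-.

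Levels of different members were compared as normalized counts per kb of exon. In day 3 *Tet3*+/+ the mean order was *Smad7* (861 per kb), *Tgfb2* (363), *Nodal* (247), *Tgfb3* (210), *Lefty1* (115), *Tgfb1* (98.3), *Lefty2* (71.6) and *Inhba* (23.0). The samples overlapped between *Tgfb2* and *Nodal*, *Nodal* and *Tgfb3*, and *Lefty1* and *Tgfb1*. At day 3 in *Tet3* m/m the mean of *Nodal* (616 per kb) came after *Smad7* (979), with samples overlapping those of *Lefty1* (516) and *Tgfb2* (354). In day 3 *Tet3*-/- *Tgfb2* (862 per kb) came after *Smad7* (921), and their samples overlapped. *Smad7* with EV in the *Dnmt1* experiment led in *Tet3*+/+ (1014 per kb) ahead of *Lefty1* (528), *Nodal* (468) and *Lefty2* (398). For *Tet3* m/m *Lefty1* led (2454 per kb), ahead of *Smad7* (1390), *Lefty2* (1106) and *Nodal* (1075), the last 2 overlapping. In *Tet3*-/- *Smad7* (1057 per kb) was followed by *Tgfb2* (541), *Nodal* (246) and *Tgfb3* (213), with *Lefty1* at 65.2 and *Lefty2* at 34.0. *Inhba* had the lowest mean in each genotype at day 3, overlapping with *Lefty2* in *Tet3*-/-, and in the *Dnmt1* experiment it exceeded only *Cer1* in *Tet3*+/+ (4.29 against 0.568 per kb) and *Tet3*-/- (27.5 against 0).

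Among 46 other genes of the pathway (ligands, co-receptors, receptors, SMADs and their partners, extracellular regulators and targets), 44 were tested for day 3 and the *Dnmt1* vector, and 43 for Tet3-CD. At day 3, 10.2% of all genes were called in *Tet3* m/m and 0.642% in *Tet3*-/- against *Tet3*+/+, and 9.73% between the mutants. Of the pathway genes, 5 were higher and 2 lower in *Tet3* m/m than in *Tet3*+/+, with a median of 0.07. They included the mesendoderm factor *Eomes* (1.79, adjusted p = 0.00439), *Foxh1*, the DNA-binding partner of SMAD2 (1.43, adjusted p = 0.00134), the activin-binding *Fst* (1.27), the co-receptor *Eng* (1.03), the target *Pmepa1* (0.78) and the latent TGF-beta binding protein *Ltbp3* (−0.70). The 5 higher genes became 3 without *Tet3*+/+ replicate 2, and the 2 lower became 0 without *Tet3*+/+ replicate 1 and 1 without *Tet3*+/+ replicate 2 or *Tet3* m/m replicate 2 or 3. *Eng* lost its call without *Tet3*+/+ replicate 2, *Pmepa1* without any of *Tet3*+/+ replicates 2 and 3 and *Tet3* m/m replicate 1, and *Ltbp3* without any of *Tet3*+/+ replicates 1 and 2 and *Tet3* m/m replicates 2 and 3. In *Tet3*-/- 2 were higher and 0 lower, *Junb* (1.19, adjusted p = 0.0464) and *Skil* (0.67, adjusted p = 0.0471), with a median of 0.09. With 16 at an unadjusted p under 0.05, edgeR called 2 higher and 0 lower there and DESeq2 4 higher and 1 lower. A lower gene was also called without *Tet3* m/m replicate 1 or 3, and the counts of higher genes ran from 0 to 6 with 1 sample left out, 6 of them without *Tet3* m/m replicate 1, 4 without *Tet3* m/m replicate 3 and 0 without each other sample. In *Tet3*-/- against *Tet3* m/m 5 were higher and 4 lower, among them the endoderm factor *Foxa2* (−1.39), *Foxh1* (−1.32), *Fstl3* (1.02), *Fst* (−0.90) and *Junb* (0.86), and the count of higher genes was 0 without *Tet3*-/- replicate 2, 1 without *Tet3* m/m replicate 2, 2 without *Tet3* m/m replicate 3, and 3 without *Tet3*+/+ replicate 2, *Tet3*+/+ replicate 3 or *Tet3*-/- replicate 1.

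With EV in the *Dnmt1* experiment, 21.2% of all genes were called in *Tet3* m/m and 24.9% in *Tet3*-/- against *Tet3*+/+, and 39.6% between the mutants. Of the pathway genes, 14 were higher and 9 lower in *Tet3* m/m than in *Tet3*+/+, with a median of 0.01. Among those with the largest values were *Inhbb* (2.25), *Eomes* (1.95), *Mixl1* (1.67), *Fstl3* (−1.49) and *Gdf11* (−1.43). In *Tet3*-/- 11 were higher and 9 lower, with a median of 0.03, among them *Gdf3* (−3.26), *Tdgf1* (−3.07), *Eomes* (−2.34), *T* (1.44) and *Tgfbr2* (1.28). Between the mutants 12 were higher and 14 lower in *Tet3*-/-, with *Eomes* (−4.29), *Tdgf1* (−4.03), *Gdf3* (−3.98) and *Inhbb* (−3.20) among the furthest apart. The call of *T* in *Tet3*-/- was lost without either EV *Tet3*+/+ sample or EV *Tet3*-/- replicate 2.

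Of the core components, *Smad2* stood at log2 values of 0.01 and −0.20 in *Tet3* m/m and *Tet3*-/- at day 3 and 0.19 and −0.02 with EV. *Tgfbr1* was at 0.00, 0.05, 0.00 and 0.44, and *Acvr2b* at −0.31, −0.56, −0.05 and −0.20, in the same order. None of these 12 values was called. *Tdgf1*, the NODAL co-receptor, was at 0.48, 0.25, 0.96 and −3.07, *Foxh1* at 1.43, 0.11, 0.80 and −1.26, and *Tgfbr2*, the TGF-beta receptor, at 0.05, 0.63, −0.27 and 1.28. The calls were those of *Tdgf1* with EV, of *Foxh1* in *Tet3* m/m at day 3 and in both mutants with EV, and of *Tgfbr2* in *Tet3*-/- with EV. *Tgfbr2* in *Tet3*-/- at day 3 was called in a fit to the 2 groups (adjusted p = 0.0427) and without *Tet3* m/m replicate 1 (0.0341), over a range from 0.0341 to 0.42.

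Under the *Dnmt1* vector, limma, edgeR and DESeq2 called 0 higher and 0 lower pathway genes in *Tet3*+/+ (8 had an unadjusted p under 0.05, and 1 was higher without either EV *Tet3*+/+ sample). By limma there were 3 higher in *Tet3* m/m (*Fst* 1.32, *Lhx1* 0.83 and *Tdgf1* 0.68) and 6 higher in *Tet3*-/- (among them *Ccn2* 1.10, *Eomes* 1.09, *Gdf3* 0.84, *Eng* 0.82 and *Pmepa1* 0.73), with none lower in either by any of the 3 tools. Unadjusted, 12 genes in *Tet3* m/m and 22 in *Tet3*-/- had p under 0.05, and 1 was lower in *Tet3*-/- without *Dnmt1* replicate 1. *Lhx1* lost its call without EV replicate 1 or *Dnmt1* replicate 2, and *Pmepa1* without *Dnmt1* replicate 2. The difference from the effect in *Tet3*+/+ was called for 1 gene in *Tet3* m/m, *Fst* (1.00), and for 10 higher and 3 lower in *Tet3*-/-, with *Ccn2* (0.98), *Gdf3* (0.95), *Tgfbi* (−0.81), *Eng* (0.65) and *Eomes* (0.63) among the largest. Of these the *Eomes* difference kept its call in only 3 of 12 fits with 1 sample left out, those without 1 of the EV *Tet3*+/+ samples, EV *Tet3*-/- replicate 2 or *Dnmt1* *Tet3*-/- replicate 1. The single gene of *Tet3* m/m became 4 without *Dnmt1* *Tet3*-/- replicate 1 or 2 and 2 without EV *Tet3*-/- replicate 1 or 2. The 10 higher genes of *Tet3*-/- became 6 and 5 without the EV *Tet3*+/+ samples, and 5 without EV *Tet3*-/- replicate 1, *Dnmt1* *Tet3*+/+ replicate 2 or *Dnmt1* *Tet3*-/- replicate 2. The 3 lower genes became 1 without 1 EV *Tet3*+/+ sample, *Dnmt1* *Tet3*+/+ replicate 1 or *Dnmt1* *Tet3*+/+ replicate 2.

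In the Tet3-CD experiment, 18 pathway genes were past 1.5-fold higher and 9 lower in *Tet3* m/m than in *Tet3*+/+ with EV, and 11 and 6 in *Tet3*-/-. Among the values furthest from 0 were *Gdf3* (2.78), *Foxh1* (2.50), *Fst* (−2.11) and *Eng* (1.93) in *Tet3* m/m, and *Fst* (−2.48), *Fstl3* (1.73), *Gdf3* (1.47), *Ccn2* (−1.35) and *Ltbp1* (−1.05) in *Tet3*-/-. Tet3-CD against EV gave 0 higher and 3 lower in *Tet3*+/+ (among them *Gdf3* −1.08 and *Tdgf1* −0.65). For *Tet3* m/m it gave 1 higher (*T* 0.76) and 1 lower (*Mixl1* −0.96), and in *Tet3*-/- 3 higher and 4 lower, with *Ccn2* (1.55), *Fst* (−0.97), *Eng* (0.97), *Tdgf1* (−0.89) and *Gdf3* (−0.79) among the largest.

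Markers of other cell types also differed between genotypes, in part in the order of the members and in part not. For each comparison, the share over all genes to set beside the marker counts is the one given with the members. The 8 pluripotency markers, *Dppa5a* the most abundant, summed at day 3 to 8813, 11544 and 7094 normalized counts in *Tet3*+/+ samples, 10442, 17020 and 26351 in *Tet3* m/m samples and 10224 and 5927 in *Tet3*-/- samples. In the *Dnmt1* experiment with EV they summed to 37885 and 37965 in *Tet3*+/+ samples, 103048 and 100495 in *Tet3* m/m samples and 5966 and 6304 in *Tet3*-/- samples. The sums thus lay in the order of *Nodal* and *Lefty1* in that experiment. There 8 of 8 were called higher in *Tet3* m/m and 7 of 8 lower in *Tet3*-/-, while at day 3 2 of 8 were higher in *Tet3* m/m and 0 differed in *Tet3*-/- by limma, edgeR or DESeq2, with 0 at an unadjusted p under 0.05. The day 3 *Tet3* m/m count was 0 without any of *Tet3*+/+ replicates 1 and 3 and *Tet3* m/m replicate 2, and 1 without *Tet3*+/+ replicate 2 or *Tet3* m/m replicate 3.

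The 8 extraembryonic endoderm markers, *Lama1* the most abundant, summed at day 3 to 12251, 12966 and 16705 in *Tet3*+/+ samples, 19086, 17591 and 34374 in *Tet3* m/m samples and 10823 and 13490 in *Tet3*-/- samples. With EV in the *Dnmt1* experiment the sums were 55233 and 59669, 193500 and 171663, and 15055 and 14424. At day 3 2 of 8 were higher in *Tet3* m/m (0 without any of *Tet3*+/+ replicates 1 and 2 and *Tet3* m/m replicates 1 and 3) and 0 were called in *Tet3*-/- by limma or edgeR, 3 by DESeq2 and 5 had an unadjusted p under 0.05. Without *Tet3* m/m replicate 1 or 3 the *Tet3*-/- count became 1 or 2 lower. With EV 7 were higher in *Tet3* m/m and 7 lower in *Tet3*-/-. In the Tet3-CD experiment the order differed, with EV sums of 247797 (*Tet3*+/+), 42234 (*Tet3* m/m) and 54110 (*Tet3*-/-), and 8 of 8 were past 1.5-fold lower in each mutant. Pluripotency sums with EV in that experiment were 11116 (*Tet3*+/+), 24815 (*Tet3* m/m) and 12773 (*Tet3*-/-), with 6 past 1.5-fold higher and 2 lower in *Tet3* m/m and 5 higher and 2 lower in *Tet3*-/-. Primitive streak sums were 187, 563 and 198 in the same order, with 3 higher in *Tet3* m/m and 1 in *Tet3*-/-. Neural sums were 7574, 16312 and 7109, the *Tet3* m/m sum carried by *Nes*, with 1 higher and 6 lower in *Tet3* m/m and 0 past 1.5-fold in *Tet3*-/-. Fibroblast sums were 31297, 28475 and 24083, with 2 higher and 3 lower of 7 in *Tet3* m/m, and 2 higher and 2 lower in *Tet3*-/-. The 5 primitive streak markers listed, of 6 (*Mesp1* was in no table), with *Eomes* the most abundant, summed with EV to 365 and 433 in *Tet3*+/+ samples, 1243 and 1349 in *Tet3* m/m samples and 181 and 188 in *Tet3*-/- samples. At day 3 they summed to 200, 256 and 198, 372, 485 and 479, and 275 and 222. There 1 of 5 was higher in *Tet3* m/m (2 without *Tet3* m/m replicate 2) and 0 in *Tet3*-/- by limma, edgeR or DESeq2 (2 at an unadjusted p under 0.05). With EV 3 were higher in *Tet3* m/m, and 1 higher and 1 lower in *Tet3*-/- (0 higher without either EV *Tet3*+/+ sample or EV *Tet3*-/- replicate 2).

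The 8 fibroblast markers would also mark feeder cells, which the study's methods remove by pre-plating before differentiation. These markers, with *Col1a1* the most abundant, summed at day 3 to 29439, 18576 and 21902 in *Tet3*+/+ samples, 22355, 16524 and 11994 in *Tet3* m/m samples and 44415 and 49354 in *Tet3*-/- samples. In the *Dnmt1* experiment with EV they summed to 20644 and 18795, 3789 and 4080, and 38222 and 38124, the order of *Tgfb2*. At day 3 1 was higher in *Tet3* m/m (*Thy1*, lost without any *Tet3*+/+ sample or without *Tet3* m/m replicate 1 or 2), 2 were lower without *Tet3* m/m replicate 1, and 0 were called in *Tet3*-/- by limma or edgeR, 1 by DESeq2, and 3 had an unadjusted p under 0.05. Without *Tet3* m/m replicate 1 or 3 the *Tet3*-/- count was 2 higher. With EV 1 was higher and 5 lower in *Tet3* m/m, and 4 higher and 1 lower in *Tet3*-/-. The 8 neural markers, with *Nes* the most abundant, summed at day 3 to 15913, 13193 and 20740 in *Tet3*+/+ samples, 12172, 13886 and 12125 in *Tet3* m/m samples and 25523 and 22514 in *Tet3*-/- samples. With EV the sums were 8937 and 9329, 3279 and 3419, and 15351 and 14834. At day 3 6 of 8 were lower in *Tet3* m/m (*Hes5* was at 0 in *Tet3* m/m replicate 1), and with EV 5 were lower and 1 higher in *Tet3* m/m (0 higher without 1 EV *Tet3*+/+ sample or EV *Tet3* m/m replicate 1) and 4 higher and 2 lower in *Tet3*-/-, the 4 being 2 without EV *Tet3*-/- replicate 2. At day 3 the higher *Tet3*-/- sum came from *Nes* alone, at 21181 and 19689, since 7 of the 8 had log2 values below 0 (median −0.87) and all 8 an unadjusted p under 0.05. There 1 was called higher (*Nes*) and 1 lower (*Neurog2*) in *Tet3*-/-, and each of these counts reached 0 without *Tet3*+/+ replicate 1, 2 or 3, *Tet3* m/m replicate 2, or *Tet3*-/- replicate 1 or 2, and 4 were lower without *Tet3* m/m replicate 1.

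Between the mutants at day 3, 6 of 8 extraembryonic endoderm markers and 2 of 8 pluripotency markers were lower in *Tet3*-/- than in *Tet3* m/m, and 2 fibroblast and 2 neural markers higher. The 6 became 3, with 1 higher, without *Tet3*-/- replicate 1. The 2 pluripotency markers became 4 without *Tet3* m/m replicate 1 and 0 without *Tet3*-/- replicate 2, and the 2 neural markers 1 without *Tet3*-/- replicate 1. Of the 5 primitive streak markers limma, edgeR and DESeq2 called 0, with 2 at an unadjusted p under 0.05 and 1 lower without *Tet3*-/- replicate 1 or 2. With EV in the *Dnmt1* experiment 8 pluripotency, 7 extraembryonic endoderm, 3 primitive streak, 2 neural and 1 fibroblast marker were lower in *Tet3*-/- than in *Tet3* m/m, and 6 neural and 6 fibroblast markers higher.

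Under the *Dnmt1* vector in *Tet3*-/-, 5 of 8 pluripotency markers were called higher, with sums of 9347 and 9183 beside 5966 and 6304 with EV, and 2 fibroblast markers lower (1 without EV replicate 2). Also higher there were 1 extraembryonic endoderm marker (0 without *Dnmt1* replicate 1) and 1 primitive streak marker, *Eomes*. For *Tet3* m/m 4 fibroblast and 3 neural markers were higher, and 0 of 8 pluripotency markers were called by limma, edgeR or DESeq2 (3 at an unadjusted p under 0.05). In *Tet3*+/+ the only marker called was 1 neural gene, higher. The difference from the effect in *Tet3*+/+ was called in *Tet3*-/- for 5 pluripotency markers, 2 extraembryonic endoderm markers and *Eomes*, higher, and for 1 neural and 1 fibroblast marker, lower. The 2 endoderm markers became 1 in each fit with a sample left out except those without EV *Tet3*-/- replicate 1 or *Dnmt1* *Tet3*-/- replicate 1. *Eomes* kept its call only without 1 EV *Tet3*+/+ sample, EV *Tet3*-/- replicate 2 or *Dnmt1* *Tet3*-/- replicate 1, and without the last of these 3 neural markers were lower and 1 fibroblast marker higher. Likewise in *Tet3* m/m it was called for 3 fibroblast markers, higher, and by limma for 0 of the other lists, where 4 neural and 2 pluripotency markers had an unadjusted p under 0.05. There edgeR and DESeq2 each called 1 neural marker higher and 1 pluripotency marker lower. By limma 1 neural marker was higher and 1 pluripotency marker lower without *Dnmt1* *Tet3*-/- replicate 1 or 2, and 1 neural marker was higher without EV *Tet3* m/m replicate 2 or *Dnmt1* *Tet3* m/m replicate 1. Under Tet3-CD in *Tet3*-/-, 7 extraembryonic endoderm, 6 pluripotency, 5 neural and 2 fibroblast markers were past 1.5-fold lower, 1 neural marker was higher and *Lum* was at 0. Pluripotency sums there were 12773 with EV and 8017 with Tet3-CD. In *Tet3*+/+, where *Lefty1* and *Lefty2* were lower with Tet3-CD, 2 pluripotency markers (*Nanog* and *Dppa5a*) and 4 neural markers were past 1.5-fold lower, and 1 primitive streak marker was higher and 1 lower. Pluripotency sums in *Tet3*+/+ were 11116 with EV and 8228 with Tet3-CD, and extraembryonic endoderm sums 247797 and 203544 with 0 markers past 1.5-fold. In *Tet3* m/m 1 fibroblast marker was higher, 1 primitive streak marker higher and 1 lower, and 0 of the other lists were past it. The part of these marker sets in the members' values was not tested.

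Genes whose levels were most like those of each member were found by Pearson correlation of log2 values, centred on each experiment, over 26 samples and 16812 genes. The samples share genotypes, vectors and cultures, so the coefficients describe these data only. For *Nodal* they were *Foxh1* (0.974), *Dppa4* (0.957) and *Wdtc1* (0.949). For *Lefty1* they were *Rpp25* (0.982), *Ooep* (0.976) and *Lefty2* (0.974), and for *Lefty2* *Ooep* (0.986), *Nlrp4f* (0.98) and *Zfp978* (0.979). *Tgfb2* was most like *Msrb3* (0.98), *Acta2* (0.979) and *Bin1* (0.979), *Tgfb3* like *Ptn* (0.968), *Rbms3* (0.957) and *Sema3a* (0.955), and *Inhba* like *Nkain4* (0.967), *Hacd4* (0.957) and *Kif1a* (0.955). The closest to *Tgfb1* were *Agpat3* (0.943), *Abtb2* (0.918) and *Sptlc2* (0.911), and among the closest to *Smad7* were *Psma2* (0.911) and *Epha2* (0.865).

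Between members, *Nodal* and *Lefty1* had a coefficient of 0.9 over the 26 samples, *Lefty1* and *Lefty2* 0.97, *Nodal* and *Smad7* 0.8, *Tgfb2* and *Inhba* 0.87 and *Nodal* and *Tgfb3* −0.77. Within experiments *Nodal* and *Smad7* had 0.87 (*Dnmt1* experiment), 0.38 (day 3) and 0.88 (Tet3-CD), and *Nodal* and *Lefty1* had 0.98 (*Dnmt1* experiment), 0.86 (day 3) and 0.96 (Tet3-CD). *Nodal* and *Tgfb2* differed in sign between experiments, at −0.86, −0.4 and 0.69, and so did *Nodal* and *Inhba*, at −0.75, −0.73 and 0.73.

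The members lie on 7 chromosomes: *Lefty1*, *Lefty2* and *Tgfb2* on 1, *Cer1* on 4, *Tgfb1* on 7, *Nodal* on 10, *Tgfb3* on 12, *Inhba* on 13 and *Smad7* on 18. The median log2 value of all tested genes on these chromosomes lay between −0.151 and 0.073 in every comparison. Chromosome 6, which holds *Tet3* and no member, lay outside that range in *Tet3* m/m against *Tet3*+/+. Its medians were −0.225 at day 3, and −0.246 and −0.247 with EV in the *Dnmt1* and Tet3-CD experiments. For *Tet3*-/- against *Tet3* m/m they were 0.208 at day 3 and 0.32 with EV in the *Dnmt1* experiment.

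The promoters of 4 members are shown to look for pathway motifs, from RefSeq on GRCm38.p6. *Nodal* (chr10:61417722-61418021, plus strand) was higher in *Tet3* m/m. *Cer1* (chr4:82885102-82885401, minus strand) was listed in the *Dnmt1* experiment alone, where it passed the filter only through its higher *Tet3* m/m samples. *Tgfb2* (chr1:186705940-186706239, minus strand) and *Inhba* (chr13:16011601-16011900, plus strand) were called higher in *Tet3*-/- with EV in the *Dnmt1* experiment. Both were lower in *Tet3*-/- with EV in the Tet3-CD experiment. Of the 9 members, 5 were matched (*Nodal*, *Cer1*, *Tgfb1*, *Tgfb2* and *Inhba*). Promoters of *Lefty1*, *Lefty2* and *Tgfb3* were missing. *Smad7* was left out by choice, so no motif result is given for it. Each run holds 300 bases, 250 before to 50 after the start, and capitals mark CAGAC, a SMAD-binding motif, read on both strands (GTCTG on the other).
Nodal: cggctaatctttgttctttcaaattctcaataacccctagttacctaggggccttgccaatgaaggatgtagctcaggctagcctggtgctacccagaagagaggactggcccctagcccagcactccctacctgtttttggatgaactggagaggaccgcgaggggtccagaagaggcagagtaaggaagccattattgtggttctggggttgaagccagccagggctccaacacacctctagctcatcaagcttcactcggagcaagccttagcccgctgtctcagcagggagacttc
Cer1: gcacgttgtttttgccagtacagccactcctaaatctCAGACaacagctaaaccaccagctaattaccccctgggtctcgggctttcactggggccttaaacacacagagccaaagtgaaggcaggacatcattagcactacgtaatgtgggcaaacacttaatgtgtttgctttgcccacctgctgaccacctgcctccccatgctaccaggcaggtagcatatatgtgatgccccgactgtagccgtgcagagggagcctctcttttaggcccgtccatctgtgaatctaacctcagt
Tgfb2: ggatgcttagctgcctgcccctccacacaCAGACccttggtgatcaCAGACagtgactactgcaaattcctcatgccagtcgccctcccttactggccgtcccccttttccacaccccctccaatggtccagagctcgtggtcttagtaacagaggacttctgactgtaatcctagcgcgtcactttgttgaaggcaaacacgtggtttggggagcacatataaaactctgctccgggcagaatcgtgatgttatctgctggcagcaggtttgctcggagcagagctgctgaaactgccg
Inhba: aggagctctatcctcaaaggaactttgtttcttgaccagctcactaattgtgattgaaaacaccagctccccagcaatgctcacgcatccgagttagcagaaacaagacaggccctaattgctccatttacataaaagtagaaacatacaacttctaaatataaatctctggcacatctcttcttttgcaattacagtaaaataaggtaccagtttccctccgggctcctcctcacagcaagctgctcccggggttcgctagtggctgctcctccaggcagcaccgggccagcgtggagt

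CAGAC was found at −213 from the start in *Cer1* and at −221 and −204 in *Tgfb2*, and not in the windows of *Nodal*, *Tgfb1* or *Inhba*. Of 32851 promoters of that length, 16292 (49.6%) held it. The FOXH1 motif AATCCACA (TGTGGATT on the other strand) was in 281 promoters (0.855%) and in none of these 5. A match describes letters in this window and is not evidence of binding.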

How the data were processed

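RNA-seq of 26 NE samples was used as deposited: per the file headers and the study's notes, the authors trimmed reads (Trim Galore 0.6.7), aligned them (STAR 2.7.9a), counted them (featureCounts) and deposited DESeq2-normalized counts, the signal used here. The paper names mm39 and the processing notes mm10, while positions here use GRCm38 and exon lengths GENCODE M21. Dividing each column by its value of 1 read, estimated from its smallest values, recovered reads, whole for 100.0% of values within 0.01. On these reads edgeR called 1821 and DESeq2 2312 genes in the day 3 *Tet3* m/m comparison.

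Genes with a mean of at least 10 entered limma 3.58.1 (R 4.3.3) on log2 of the count plus 1, with all groups of an experiment in 1 fit, a mean-variance trend and Benjamini-Hochberg adjustment over all genes. Called genes differed by more than 1.5-fold at an adjusted p under 0.05, and for differences of effects only the adjusted p counted. The fit was tested on simulated data, where it called most of the planted changes and none when none were planted. Groups with 1 sample gave log2 ratios with exact 95% counting intervals, and the floor was 3 counts.

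The 9 members, the pathway list and the neural, pluripotency, extraembryonic endoderm, primitive streak and fibroblast marker lists were chosen with earlier results of these data known. Named were the members, *Tet3*, *Dnmt1*, up to 6 called pathway genes with the largest change per comparison (some left out, such as those near 0 counts in a group), 6 core pathway genes, and up to 3 genes most alike each member. Alternatives were pseudocounts of 0.1 and 5, no filter, a mean of at least 50, edgeR 4.0.16, DESeq2 1.42.0, TMM rescaling, only the compared groups, no fold change threshold, a replicate block and each sample left out. Tables were made with Python 3.11.15, numpy 2.4.6, pandas 2.3.3 and scipy 1.17.1, figures with matplotlib 3.10.9.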

Additional observations from a re-analysis of the deposited data

Results flagged for a closer look

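The response to the *Dnmt1* vector differed between genotypes for 4 members by a test of the difference, which called 1.31% of all genes for *Tet3* m/m and 9.71% for *Tet3*-/-. For *Tgfb3* the log2 effect in *Tet3* m/m exceeded that in *Tet3*+/+ by 0.83, a call lost without 1 of the EV *Tet3*+/+ samples (adjusted p = 0.059). In *Tet3*-/- the excess over *Tet3*+/+ was 0.38 for *Nodal*, 0.96 for *Lefty1* and 0.82 for *Lefty2*. The call of *Nodal* (adjusted p = 0.0434) was lost in 10 of 12 fits with 1 sample left out, with a pseudocount of 0.1, with only the compared groups and with a replicate block. The value of *Lefty1* was 0.58 without *Dnmt1* *Tet3*-/- replicate 2. Pluripotency markers moved with these members in the *Tet3*-/- difference, 5 of 8 called higher, and 3 fibroblast markers with *Tgfb3* in the *Tet3* m/m difference, and their part was not tested.

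The response to Tet3-CD had opposite signs between genotypes for 3 members, with counting intervals on both sides of 0, and with 1 sample a group the difference was not tested. The intervals cover counting error only, and that of *Tgfb2* in *Tet3* m/m (log2 ratio −0.07) lay close to 0, from −0.13 to −0.01. The share of all genes that meet the same rule was not counted, so the number of members cannot be set against it. For *Nodal* the log2 effect in *Tet3*-/- exceeded that in *Tet3*+/+ by 0.81 and that in *Tet3* m/m by 0.55. For *Tgfb2* the effect in *Tet3* m/m minus that in *Tet3*+/+ was −0.44, and that in *Tet3*-/- minus that in *Tet3* m/m was 1.49. For *Tgfb3* the effect in *Tet3*-/- minus that in *Tet3*+/+ was −0.94.

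For 4 members the same genotype comparison had clear opposite directions in different experiments, counted only where the samples of the groups did not overlap and, in the Tet3-CD experiment, where the counting interval lay on 1 side of 0. These differences were not tested. The share of all genes that meet the same rule was not counted, so the number of members cannot be set against it. For *Tet3*-/- against *Tet3*+/+, the Tet3-CD experiment minus the *Dnmt1* experiment gave 1.71 for *Nodal*, 4.14 for *Lefty2*, −2.15 for *Tgfb2* and −3.71 for *Inhba*. The Tet3-CD experiment minus day 3 gave −1.89 for *Tgfb2* and −2.52 for *Inhba*. For *Tet3* m/m against *Tet3*+/+, the Tet3-CD experiment minus the *Dnmt1* experiment gave 2.53 for *Tgfb2*.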

How the results depend on the processing

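The number of members called kept its value, or moved by less than 1.5-fold, under most settings. With only the compared groups fitted it was 2 in place of 0 for day 3 *Tet3*-/- against *Tet3*+/+ and 2 in place of 5 for *Tet3*-/- against *Tet3* m/m, and with a replicate block it was 3 for the latter. Without a fold change threshold it was 1, 4 and 5 in place of 0, 2 and 3 for *Dnmt1* against EV in *Tet3*+/+, *Tet3* m/m and *Tet3*-/-. With 1 sample left out it ran from 3 to 6 for day 3 *Tet3* m/m against *Tet3*+/+ (4 in the whole fit), 0 to 2 for *Tet3*-/- against *Tet3*+/+, 1 to 5 for *Tet3*-/- against *Tet3* m/m, 2 to 4 for *Dnmt1* in *Tet3*-/-, 0 to 2 for the *Tet3* m/m difference of *Dnmt1* effects (1) and 2 to 4 for the *Tet3*-/- difference (3). It stayed at 6, 6 and 7 for the EV genotype comparisons and at 0 and 2 for *Dnmt1* in *Tet3*+/+ and *Tet3* m/m. The replicate numbers do not mark a pairing: correlations of deviations were −0.10 to 0.08 at day 3 and −0.02 to 0.0 in the *Dnmt1* experiment, so the block was an alternative only.

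Signs turned only for values that were not called. For *Lefty2*, *Dnmt1* in *Tet3*+/+ was −0.003095 with TMM in place of 0.001345. For *Cer1* the *Tet3* m/m difference was −1.145 with a pseudocount of 0.1 in place of 0.2629, and the *Tet3*-/- difference 2.252 (edgeR) and 1.51 (DESeq2) in place of −0.1408. For *Tgfbr1*, EV *Tet3* m/m against *Tet3*+/+ was −0.019 (edgeR), −0.002285 (DESeq2) and −0.01645 (TMM) in place of 0.000455. The cause was not tested.

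With 1 sample left out, day 3 *Tet3* m/m against *Tet3*+/+ ran from −0.3769 to 0.1819 for *Tgfb2*, −0.04185 to 0.07978 for *Smad2*, −0.05455 to 0.0556 for *Tgfbr1* and −0.2071 to 0.2174 for *Tgfbr2*. Day 3 *Tet3*-/- against *Tet3*+/+ ran from −0.05024 to 0.2568 for *Nodal*, −0.8096 to 1.48 for *Lefty1*, −0.2851 to 1.076 for *Lefty2*, −0.1141 to 0.2846 for *Smad7* and −0.235 to 0.7423 for *Tdgf1*. Day 3 *Tet3*-/- against *Tet3* m/m ran from −0.6111 to 0.0453 for *Tgfb1* and −0.2856 to 0.1131 for *Smad7*. With EV, *Tet3* m/m against *Tet3*+/+ ran from −0.3336 to 0.09728 for *Inhba*, −0.1008 to 0.00985 for *Acvr2b* and −0.06091 to 0.06182 for *Tgfbr1*, and *Tet3*-/- against *Tet3*+/+ from −0.06795 to 0.03436 for *Smad2*. *Dnmt1* in *Tet3*+/+ ran from −0.1375 to 0.1402 for *Lefty2*. The *Tet3* m/m difference ran from −0.06808 to 0.08446 for *Nodal*, −0.5237 to 1.05 for *Cer1*, −0.01816 to 0.2068 for *Tgfb1* and −0.7413 to 0.2793 for *Inhba*, and the *Tet3*-/- difference from −0.9274 to 0.6458 for *Cer1* and −0.0129 to 0.2502 for *Tgfb2*.

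Genes called over all genes moved by more than 1.5-fold in these cases. Day 3 *Tet3*-/- against *Tet3*+/+ had 115, and 64 or 223 with a pseudocount of 0.1 or 5, 58 with a mean of at least 50, 917 with DESeq2, 67 with TMM and 664 with only the compared groups. With 1 sample left out it ran from 0 to 706. Day 3 *Tet3*-/- against *Tet3* m/m had 1744, and 1157 with only the compared groups. Without a fold change threshold the EV comparisons went from 3831 to 8230, 4504 to 9612 and 7141 to 11852, and *Dnmt1* against EV from 212 to 1010, 444 to 1842 and 638 to 2423. With only the compared groups *Dnmt1* in *Tet3*+/+ went from 212 to 322, in *Tet3*-/- from 638 to 335 and the *Tet3* m/m difference from 236 to 369. With 1 sample left out the *Tet3* m/m difference ran from 125 to 410 and the *Tet3*-/- difference, 1753 in the whole fit, from 936 to 2679. With a mean of at least 50 the Tet3-CD experiment's counts went from 6338 to 4011, 4735 to 2746, 2344 to 594, 1766 to 313 and 3751 to 1889. The cause was not tested.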
